A study of Mus musculus with 10 samples.

Results

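Antioxidant enzymes were examined as a set of 33 genes named for their role in removing superoxide, peroxides and oxidised thiols, of which 31 had a probe set of their own among the 19936 genes measured. Prdx5 and Prdx6 had none and were not analysed here. Expression was measured in forebrains of mouse embryos at E12.5, on a mixed CD1/NMRI background, with 1 array per embryo. In 5 embryos, titled dtg and here called transgenic, a constitutively active allele of FoxO3 was expressed under the CaMKIIa promoter, which the study describes as specific for the forebrain. The 5 embryos titled stg served as controls, and the labels do not say whether they carry a transgene. There were 2 litters, and since no label ties an embryo to its mother, group and litter cannot be told apart. The comparison asked which of these genes differed in level when active FoxO3 was present.

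Superoxide dismutases turn superoxide into hydrogen peroxide, which catalase, glutathione peroxidases and peroxiredoxins then remove. The peroxidases draw their electrons from glutathione or thioredoxin, and these are kept reduced by NADPH-dependent reductases. FOXO factors are known to activate Sod2, Cat and Prdx3 in other cells, and Nrf2, encoded by Nfe2l2, is the main activator of the genes for glutathione synthesis, thioredoxin and Nqo1. Values below are the deposited log2 intensities, and a difference is the mean of the transgenic minus the mean of the control embryos on that scale.

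No antioxidant enzyme gene passed the test over all genes. Of the 31 genes, 0 had an adjusted p below 0.05 in limma, against 0.105% of all genes, and the smallest adjusted p was 0.498. By the unadjusted p, 5 genes (16.1%) lay below 0.05, against 7.58% of all genes: Gclc, Gclm, Txn1 and Glrx5 were lower in the transgenic embryos and Glrx was higher. In 0 of the 31 genes were the groups without overlap, against 1.60% of all genes. In all, 20 genes (64.5%, against 51.9% of all genes) read lower and 11 higher, of which Sod1, Gpx1 and Glrx3 turned sign under another scaling of the arrays. The median difference was -0.039, beside -0.0038 over all genes, and the 31 differences ran from -0.25 to 0.19. In RNA from whole tissue, fewer cells of a type and less RNA per cell cannot be told apart.

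The group differences had narrow intervals for most of the set. These intervals hold for each gene by itself, and they leave out litter, which the labels do not give. The 95% interval lay within 0.32 on the log2 scale, or 1.25-fold, in either direction for 23 of the 31 genes, and within 0.5 for 30. The interval of Gsr was the exception at the wider bound, from -0.52 to 0.046. Sod3, Gpx3, Glrx and Nqo1 lay below the 40th percentile of brightness, and the deposited table gives no measure of detection with which to judge such dim values.

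**Figure D1:**
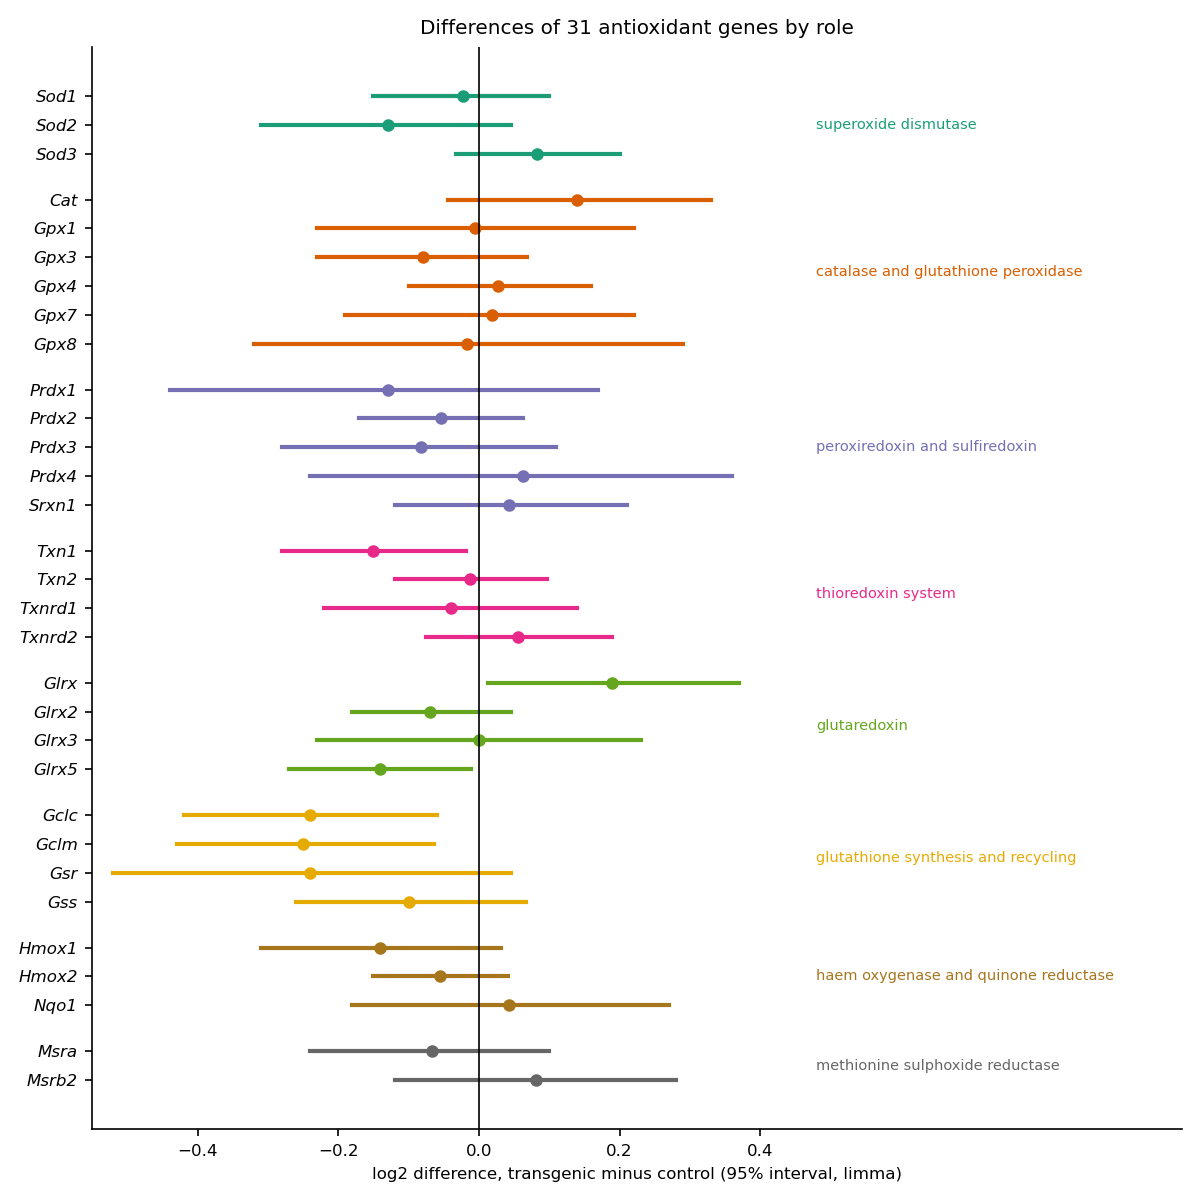
Log2 difference (transgenic minus control, horizontal axis) of each of the 31 genes with its 95% interval from limma, grouped and coloured by role (n = 5 embryos per group). The 4 genes of glutathione synthesis and recycling all lie left of 0, and 5 intervals, those of Gclc, Gclm, Txn1, Glrx5 and Glrx, leave out 0.

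Gclm, Gclc and Gsr, of glutathione synthesis and recycling, had the most negative differences of the set. Glutamate-cysteine ligase, the rate-limiting enzyme of glutathione synthesis, consists of a catalytic subunit encoded by Gclc and a modifier subunit encoded by Gclm. Gclm read 6.55, 6.85, 6.64, 6.76 and 6.93 in transgenic embryos 1 to 5 and 6.95, 6.90, 6.91, 7.01 and 7.22 in controls 1 to 5. In 4 of 5 transgenic embryos Gclm lay below all controls, and transgenic embryo 5 lay within the control range. The difference was -0.25 ± 0.084 (SE, n = 5 per group), or 1.19-fold lower, with an unadjusted p of 0.0123 that did not hold over all genes (limma adjusted p = 0.498).

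Gclc read 6.83, 7.08, 6.97, 7.19 and 7.15 in the transgenic embryos and 7.27, 7.29, 7.15, 7.22 and 7.49 in the controls. Transgenic embryo 4 alone lay within the control range, and embryo 5 lay below the lowest control by less than the second decimal. The difference of -0.24 ± 0.082 (SE, n = 5 per group) was close to that of its partner subunit (limma adjusted p = 0.503). Transgenic embryos 1 and 3 were the lowest for both subunits, and control embryo 5 was the highest for both.

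The mouse promoters in the RefSeq tables of GRCm38.p6 cover 250 bases before to 50 after a start site, and 26 of the 31 genes had at least 1 such window, while Gclc, Gsr, Hmox1, Msra and Sod3 had no entry. Both strands were searched for TGACNNNGC, the core of the antioxidant response element bound by Nrf2, and for GTAAACA, a core bound by FOXO factors. The first was found for 6 of the 26 genes, namely Gclm, Prdx1, Txnrd1, Sod1, Srxn1 and Msrb2, and in 16.2% of their 37 windows against 12.4% of all 32851 windows. The second was found for Glrx2 alone, in 2.70% of the windows of the set against 3.65% of all windows, and not in the windows of Sod2, Cat or Prdx3. Shown here are the 250 bases upstream of Gclm, which had the smallest p of the set, of Prdx1, which carries a match at nearly the same distance but whose groups overlapped widely, and of Glrx2, with the FOXO core. Capitals mark the match, which for Gclm and Prdx1 lies on the minus strand and so appears as its reverse complement, starting 134 and 133 bases before the start site. The Glrx2 match starts 38 bases before its start site, in 1 of the 4 windows listed for that gene. The windows are chr3:122245307-122245556, chr4:116685349-116685598 and chr1:143739099-143739348, all on the plus strand. These matches describe the letters and were not tested as binding sites.
Gclm: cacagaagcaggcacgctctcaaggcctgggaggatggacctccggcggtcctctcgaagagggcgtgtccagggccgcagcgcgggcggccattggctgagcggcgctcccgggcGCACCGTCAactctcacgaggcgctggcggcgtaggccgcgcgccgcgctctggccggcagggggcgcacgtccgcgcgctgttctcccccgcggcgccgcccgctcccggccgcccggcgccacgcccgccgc
Prdx1: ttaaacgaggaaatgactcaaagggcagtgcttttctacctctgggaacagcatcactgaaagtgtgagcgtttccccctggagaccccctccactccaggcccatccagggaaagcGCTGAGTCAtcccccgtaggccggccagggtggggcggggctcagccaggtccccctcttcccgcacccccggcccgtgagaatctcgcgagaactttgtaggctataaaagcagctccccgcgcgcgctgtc
Glrx2: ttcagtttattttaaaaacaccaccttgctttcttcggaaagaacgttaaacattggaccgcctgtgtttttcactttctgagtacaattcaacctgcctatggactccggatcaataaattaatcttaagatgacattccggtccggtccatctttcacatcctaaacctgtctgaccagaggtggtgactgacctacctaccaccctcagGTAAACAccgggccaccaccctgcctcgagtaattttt

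Gsr and Gss also read lower, without an unadjusted p below 0.05. Gsr, which encodes glutathione reductase, read 7.51, 7.75, 7.31, 7.87 and 7.54 in the transgenic embryos and 7.73, 7.76, 8.01, 7.50 and 8.16 in the controls. The groups overlapped, and only transgenic embryo 3 lay below all controls. The difference was -0.24 ± 0.13 (SE; limma adjusted p = 0.737). Gss, which encodes the enzyme that adds glycine to complete glutathione, differed by -0.099 ± 0.076 (SE; limma adjusted p = 0.834), and by -0.041 without transgenic embryo 3. Of the 4 genes of this role 4 read lower, where 51.9% of all genes did, and 2 had an unadjusted p below 0.05 in that direction, where 3.48% of all genes did; so few genes allow no statement on the role.

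Among the thioredoxin genes the cytosolic member read lower, and the mitochondrial member and both reductases had differences near 0. Txn1, which encodes the cytosolic thioredoxin, read 10.93, 10.99, 10.83, 11.06 and 11.00 in the transgenic embryos and 11.08, 11.13, 11.06, 11.05 and 11.25 in the controls. In 4 of 5 transgenic embryos Txn1 lay below all controls, and transgenic embryo 4 lay within their range. The difference was -0.15 ± 0.061 (SE, n = 5 per group; unadjusted p = 0.0282, limma adjusted p = 0.598). Txn2, the mitochondrial thioredoxin gene, differed by -0.012, with a 95% interval from -0.12 to 0.097. The difference between the 2 thioredoxin genes was not tested. Txnrd1 and Txnrd2, which encode the cytosolic and mitochondrial thioredoxin reductases, differed by -0.039 and 0.056.

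The glutaredoxins, a family of glutathione-dependent proteins, read in both directions. Glrx5, a mitochondrial member needed for iron-sulphur cluster assembly, read 7.77, 7.92, 7.79, 7.88 and 7.83 in the transgenic embryos and 7.89, 7.94, 7.97, 7.95 and 8.14 in the controls. Only transgenic embryo 2 lay within the control range, and the other 4 lay below it. The difference was -0.14 ± 0.059 (SE, n = 5 per group; unadjusted p = 0.0363, limma adjusted p = 0.627). Glrx, the cytosolic glutaredoxin gene, read 4.78, 4.71, 4.77, 4.93 and 4.82 in the transgenic embryos and 4.45, 4.82, 4.41, 4.73 and 4.62 in the controls. It had the largest positive difference of the set, at 0.19 ± 0.082 (SE, n = 5 per group; unadjusted p = 0.0373, limma adjusted p = 0.627). The transgenic embryos lay close together in the upper part of a broad control range, and only transgenic embryo 4 exceeded it. Glrx2 differed by -0.069 and Glrx3 by 0.00022, the smallest difference of the 31.

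**Figure D2:**
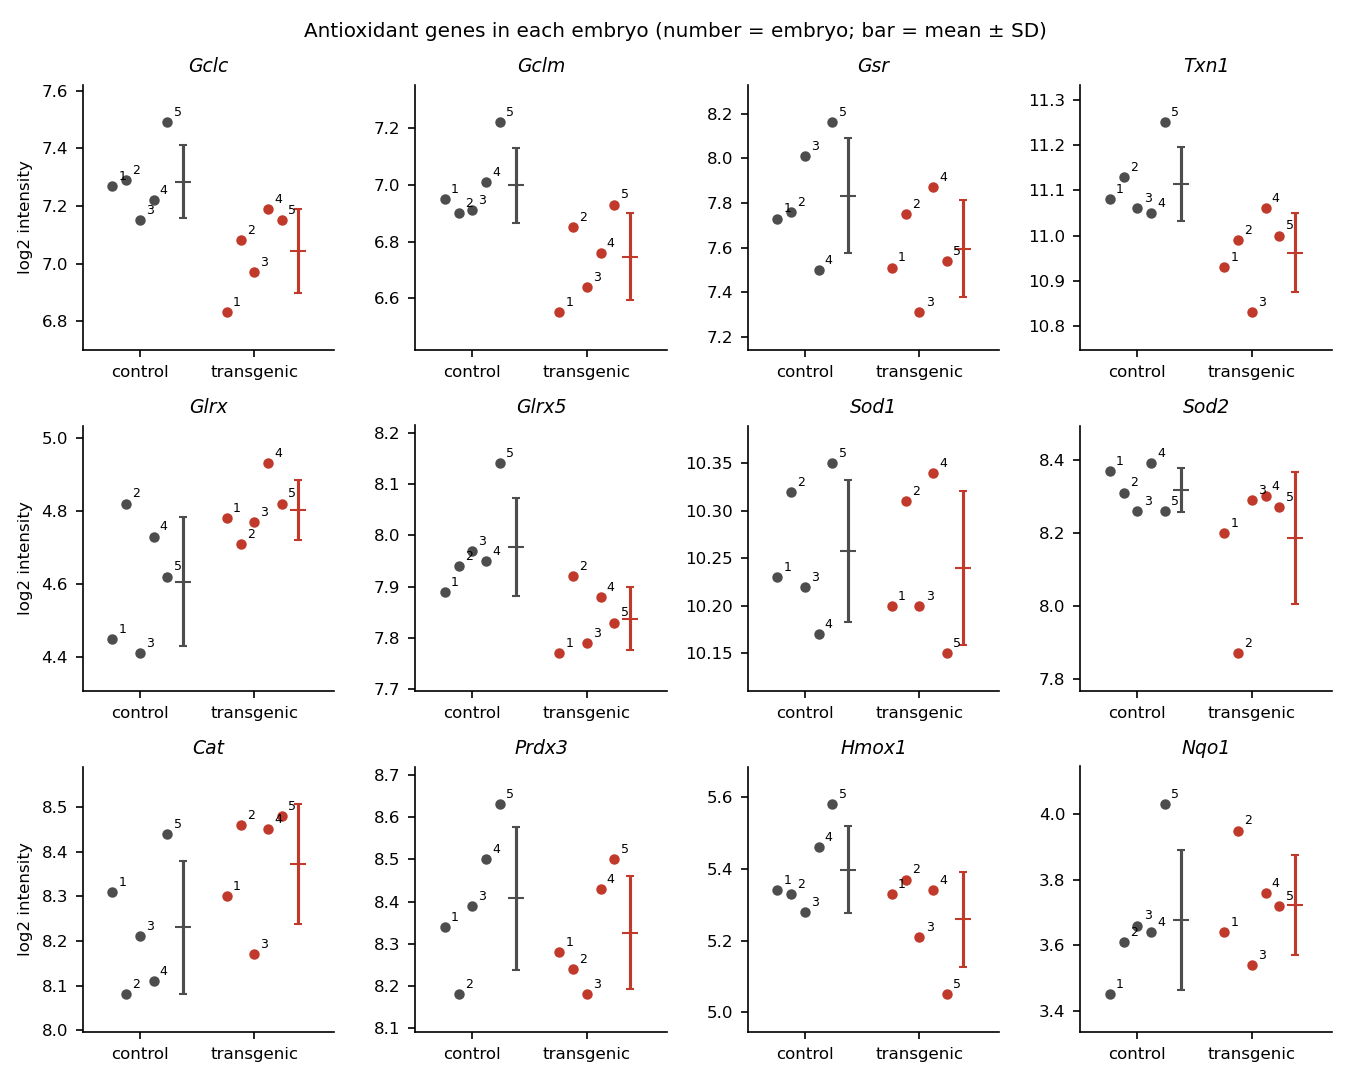
Log2 intensity (vertical axis, a separate scale for each gene) of 12 genes in each control and transgenic embryo, with the embryo number beside each point and bars for the mean ± SD (n = 5 per group). Gclc, Gclm, Txn1 and Glrx5 each have 4 of 5 transgenic embryos below all controls, while the groups of Sod1, Prdx3 and Nqo1 lie over each other.

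The superoxide dismutases and catalase, the classical antioxidant enzymes, did not pass. Sod1, the cytosolic copper-zinc enzyme, read 10.20, 10.31, 10.20, 10.34 and 10.15 in the transgenic embryos and 10.23, 10.32, 10.22, 10.17 and 10.35 in the controls. The groups covered almost the same range, with a difference of -0.022 (0.026 after quantile normalization) and a 95% interval from -0.15 to 0.10. Sod2, the mitochondrial manganese enzyme, read 8.20, 7.87, 8.29, 8.30 and 8.27 in the transgenic embryos and 8.37, 8.31, 8.26, 8.39 and 8.26 in the controls. Its difference of -0.13 ± 0.081 (SE; limma adjusted p = 0.778) depended on transgenic embryo 2, which was low, and was -0.054 without it. Sod3, the secreted enzyme, differed by 0.082 ± 0.052 (SE; limma adjusted p = 0.786).

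Cat, which encodes the peroxisomal catalase, read 8.30, 8.46, 8.17, 8.45 and 8.48 in the transgenic embryos and 8.31, 8.08, 8.21, 8.11 and 8.44 in the controls. Transgenic embryos 2, 4 and 5 lay just above the highest control, which was embryo 5, and embryos 1 and 3 lay within the control range. The difference was 0.14 ± 0.085 (SE, n = 5 per group; unadjusted p = 0.123, limma adjusted p = 0.768). Without control embryo 5 it was 0.19, with an unadjusted p of 0.0324 and a limma adjusted p of 0.69. Sod2 and Cat, both known FOXO targets, therefore read in opposite directions, and neither passed over all genes in limma.

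The 5 glutathione peroxidase genes had differences near 0. Gpx4, which removes lipid peroxides in membranes, differed by 0.027, with a 95% interval from -0.10 to 0.16. Gpx1, the cytosolic enzyme, differed by -0.0061 and turned to 0.00072 after quantile normalization. Gpx3, the secreted enzyme, differed by -0.079, and Gpx7 and Gpx8, members of the endoplasmic reticulum, differed by 0.019 and -0.017. The second probe set of Gpx4 gave 0.024.

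Among the peroxiredoxins, thiol peroxidases that are recharged by thioredoxin, 0 genes had an unadjusted p below 0.05 in limma. Prdx3, the mitochondrial member and a known FOXO3 target, read 8.28, 8.24, 8.18, 8.43 and 8.50 in the transgenic embryos and 8.34, 8.18, 8.39, 8.50 and 8.63 in the controls. The groups lay over each other, with a difference of -0.083 ± 0.089 (SE; limma adjusted p = 0.885). Prdx1 and Prdx2, the cytosolic members, differed by -0.13 and -0.054, and their second probe sets by -0.16 and -0.017. The Prdx1 value was -0.036 without transgenic embryo 3 and -0.21 without transgenic embryo 4. Prdx1 varied widely, from 7.85 in transgenic embryo 3 to 8.66 in control embryo 5, and its 95% interval ran from -0.44 to 0.17. Prdx4, the member of the endoplasmic reticulum, differed by 0.062, and Srxn1, which repairs overoxidised peroxiredoxins, by 0.043.

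The haem and quinone enzymes and the methionine sulphoxide reductases did not pass either. Hmox1, the stress-inducible haem oxygenase gene, read 5.33, 5.37, 5.21, 5.34 and 5.05 in the transgenic embryos and 5.34, 5.33, 5.28, 5.46 and 5.58 in the controls. Transgenic embryos 3 and 5 lay below all controls, and the difference was -0.14 ± 0.078 (SE; limma adjusted p = 0.748). Nqo1, a quinone reductase and a common readout of Nrf2, read 3.64, 3.95, 3.54, 3.76 and 3.72 in the transgenic embryos and 3.45, 3.61, 3.66, 3.64 and 4.03 in the controls. The transgenic values of Nqo1 all lay within the control range, with a difference of 0.043. Hmox2, the constitutive haem oxygenase gene, had the smallest spread of the 31, with an SD of 0.025 in transgenic and 0.0371 in control embryos. It differed by -0.056 (limma unadjusted p = 0.236, adjusted p = 0.838). Even so, 4 of 5 transgenic embryos lay below all controls for Hmox2, as they did for Gclc, Gclm, Txn1 and Glrx5. The share of all genes with this pattern was not counted. Msra differed by -0.067, with transgenic embryo 1 above all controls at 5.44 and the other 4 below all controls between 4.95 and 5.19, and Msrb2 differed by 0.081.

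Some embryos lay high or low across many of these genes. Control embryo 5 had the highest value of all 10 embryos for 13 of the 31 genes, where it was highest for 18.4% of all genes. It exceeded each of the other 4 controls for 19 of the 31 antioxidant genes (61.3%), against 26.6% of all genes, with a median difference from their mean of 0.16 against -0.0059. The largest excesses were 0.58 for Gpx8, 0.45 for Prdx4, 0.44 for Nqo1 and 0.40 for Gsr. At the other end, transgenic embryo 3 had the lowest value for 12 of the 31 genes, where it was lowest for 11.4% of all genes. Transgenic embryo 4 was lowest for 0 of the 31, where it was lowest for 9.61% of all genes.

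**Figure D3:**
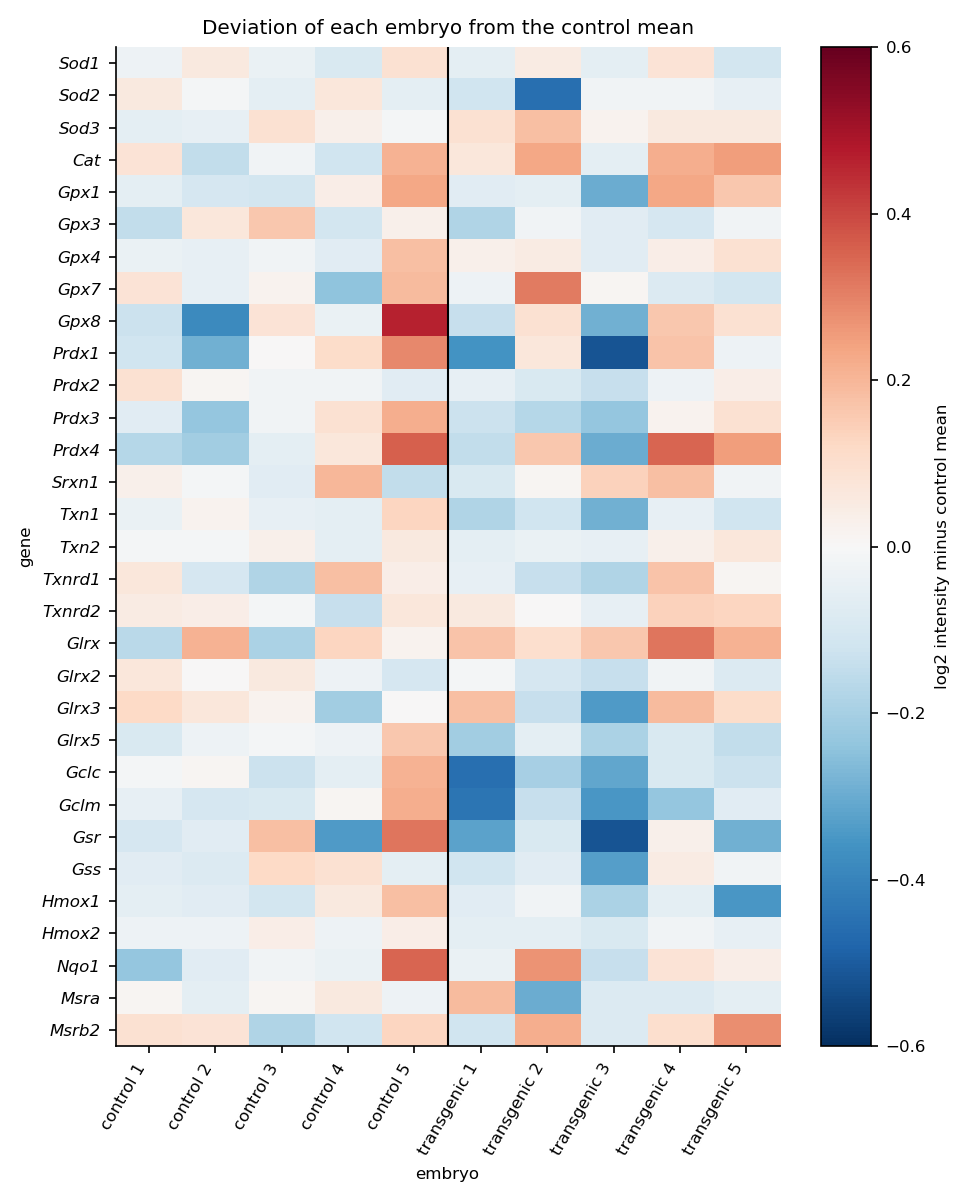
Difference of each embryo's log2 intensity from the mean of the 5 controls (colour scale, blue lower and red higher) for the 31 genes in rows by role and the 10 embryos in columns, controls left of the line. Control embryo 5 is red in most rows, transgenic embryo 3 is blue in most, and the rows of Gclc and Gclm are blue in all 5 transgenic embryos.

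Control embryo 5 also stood apart in the markers of several other cell types. Its mean over 10 mesenchyme markers was 8.21, against 6.21 to 7.07 in the other controls and 6.49 to 7.15 in the transgenic embryos. Its mean over the 8 measured of 10 erythroid markers was 7.70. The other controls ran from 6.51 to 7.14 and the transgenic embryos from 6.48 to 7.32. Over 10 neuron markers its mean was 7.35, against 8.29 to 8.57 in the other controls. Its endothelial mean was 6.89, against 6.31 to 6.70 in the other controls. Its macrophage and microglia mean of 5.07 lay within the control range of 4.72 to 5.14. Without this embryo Gclm differed by -0.19 (unadjusted p = 0.0294, limma adjusted p = 0.679) and Gclc by -0.19 (unadjusted p = 0.032, limma adjusted p = 0.69). Txn1 then differed by -0.12 (unadjusted p = 0.0748), Glrx5 by -0.099 (unadjusted p = 0.0979) and Gsr by -0.16 (unadjusted p = 0.218). The differences of Gclm and Gclc in the remaining 9 embryos were therefore smaller but on the same side. Of the 8 erythroid markers 6 read lower in the transgenic group, with a median difference of -0.18 and 0 with an unadjusted p below 0.05 in limma. In that group 7 of 10 mesenchyme and 5 of 7 endothelial markers also read lower. By contrast, 8 of 9 macrophage and microglia markers read higher. In each of these 3 lists 0 markers had an unadjusted p below 0.05 in limma. The erythroid, mesenchyme and endothelial counts include control embryo 5, whose mean was the highest of all embryos in each of those lists. The means of the other controls overlapped those of the transgenic embryos, which ran from 6.34 to 6.69 for the endothelial markers. The marker counts were not repeated without control embryo 5. Transgenic embryos 1 and 3, the lowest for Gclm and Gclc, had the lowest erythroid means of their group, at 6.51 and 6.48. Control embryo 2 also had an erythroid mean of 6.51. Its Gclm of 6.90 was the lowest of the controls, beside 6.91 in control embryo 3. Its Gclc of 7.29 was above that of every other control except embryo 5. The part of the erythroid and mesenchyme signal in the antioxidant values was not tested.

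The thalamus markers differed between the groups as well. All 6 thalamus markers had a higher mean in the transgenic group. List means were 7.21 to 8.22 in the transgenic embryos and 5.78 to 7.61 in the controls. These ranges overlapped, with control embryo 4 at 7.61 above transgenic embryo 4 at 7.21. In limma 6 had an unadjusted p below 0.05, where 4.10% of all genes did in that direction, and 0 an adjusted p below 0.05. Of the 10 neuron markers 9 read higher, 0 with an unadjusted p below 0.05, and their mean in controls 1 to 4 lay inside the transgenic range of 8.24 to 8.79. The part of the thalamus signal in the antioxidant values was not tested. The 8 radial glia markers averaged 9.08 to 9.21 in the transgenic embryos and 9.09 to 9.20 in the controls. Of the 6 measured forebrain markers 5 read lower in the transgenic group, with a median difference of -0.23 and 1 with an unadjusted p below 0.05. In control embryo 5 Emx1, Emx2 and Lhx2 were the highest of all embryos, at 7.90, 8.08 and 9.95, and Dlx1, Dlx2 and Six3 the lowest, at 4.82, 5.11 and 5.66. Arrays correlated with each other at 0.98 to 0.996 across genes, and their medians lay between 5.36 and 5.39.

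**Figure D4:**
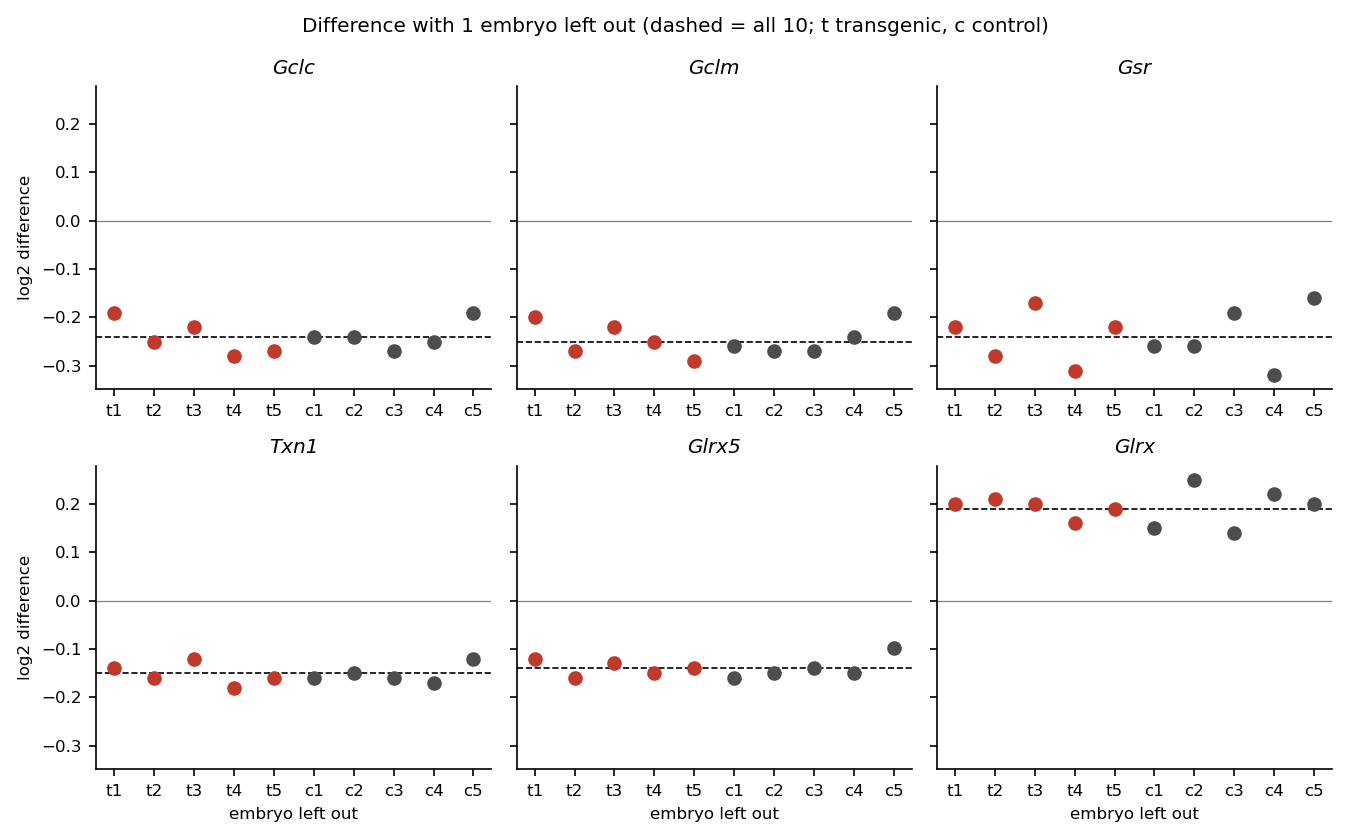
Log2 difference (vertical axis) of 6 genes when each embryo in turn was left out (horizontal axis, t for transgenic and c for control), with the dashed line at the value from all 10 embryos. All values keep their side of 0, and those of Gclc and Gclm run from -0.28 to -0.19 and from -0.29 to -0.19.

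Around these enzymes, 60 further redox genes were measured, covering regulators, sestrins, NADPH supply, glutathione transferases, selenoproteins, metallothioneins and ferritins. Of these, 1 passed over all genes, and it rose, against 0.0652% of all genes called upward, while 0 fell, against 0.0401% called downward. By the unadjusted p, 8 read higher and 4 lower, against 4.10% and 3.48% of all genes, and the median difference was -0.021. The gene that passed was Sesn3, a sestrin, of a family that limits oxidative stress and mTORC1 signalling. Sesn3 read 9.32, 9.50, 9.14, 9.39 and 9.43 in the transgenic embryos and 8.67, 8.49, 8.67, 8.53 and 8.84 in the controls. Every transgenic embryo lay above every control, and the difference was 0.72 ± 0.082 (SE, n = 5 per group; limma adjusted p = 0.00755), or 1.65-fold. This gene and Txnip are known FOXO targets whose difference in these arrays was known when they were listed. The whole list of 60 genes was chosen with earlier results of these data known, so its counts are not an independent result. Glo1, described under other observations, is among the 8 that read higher.

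The next genes by p did not pass. Sesn1 read 7.72, 7.69, 7.49, 7.83 and 7.88 in the transgenic embryos and 7.48, 7.45, 7.35, 7.18 and 7.42 in the controls, again with no overlap between the groups (difference 0.35, limma adjusted p = 0.205). Txnip, which encodes an inhibitor of thioredoxin, read 8.28, 8.37, 7.97, 8.56 and 8.27 in the transgenic embryos against 7.61, 7.51, 7.88, 7.72 and 8.14 in the controls (difference 0.52, limma adjusted p = 0.207). Only transgenic embryo 3 lay within the control range of Txnip. Mgst1, a membrane-bound glutathione transferase gene, differed by 0.66 ± 0.17 (SE; limma adjusted p = 0.221), and Sesn2 by 0.20 (limma adjusted p = 0.515). Of those that read lower, the glutathione transferase gene Gstp1 differed by -0.46 (limma adjusted p = 0.522), the pentose phosphate gene Tkt by -0.28, the metallothionein gene Mt1 by -0.42 and Hagh, which completes the glyoxalase pathway, by -0.15.

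None of the regulators of the antioxidant response named here passed over all genes. Nfe2l2 read 5.61, 6.08, 5.87, 6.18 and 5.99 in the transgenic embryos and 5.94, 5.77, 5.95, 5.70 and 6.24 in the controls, with a difference of 0.026 ± 0.12 (SE; limma adjusted p = 0.981). Its groups overlapped over nearly their whole range. Keap1, the adaptor that targets Nrf2 for degradation, differed by -0.076 and Bach1, a repressor at the same elements, by 0.050. Nfe2l1, which encodes a relative of Nrf2 and is named after its values were seen, read 8.30, 8.10, 8.33, 8.26 and 8.29 in the transgenic embryos and 8.12, 7.95, 8.12, 8.10 and 8.03 in the controls. In 4 of 5 transgenic embryos it lay above all controls, with a difference of 0.19 ± 0.060 (SE; unadjusted p = 0.00868, limma adjusted p = 0.446). Messenger levels do not report Nrf2 activity, which is set largely by protein stability.

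**Figure D5:**
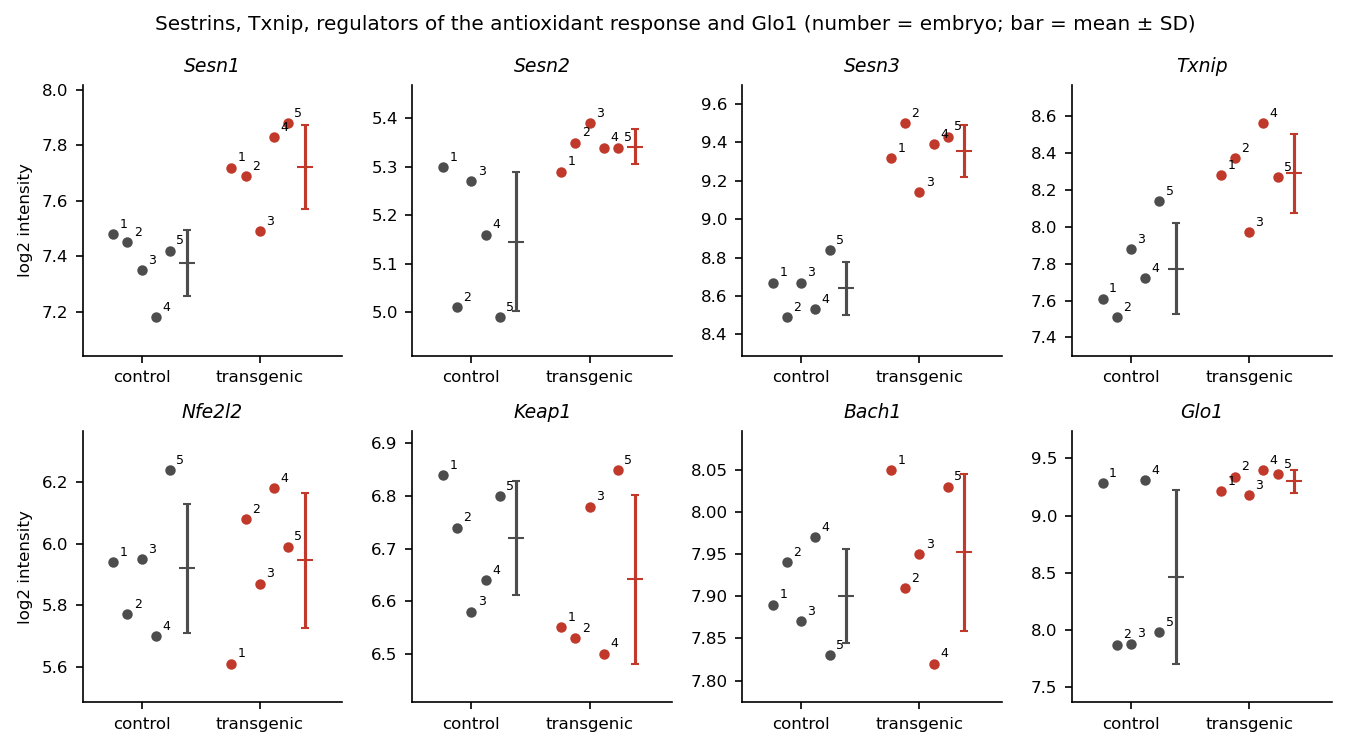
Log2 intensity (vertical axis, a separate scale for each gene) of the 3 sestrin genes, Txnip, Nfe2l2, Keap1, Bach1 and Glo1 in each embryo, with the embryo number beside each point and bars for the mean ± SD (n = 5 per group). Sesn1 and Sesn3 show no overlap between the groups, Nfe2l2, Keap1 and Bach1 overlap, and Glo1 lies near 8 in controls 2, 3 and 5 and above 9 in the other 7 embryos.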

How the data were processed

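RNA from 1 part of each of 10 forebrains was hybridised to 1 Affymetrix array per embryo. The deposited table holds log2 intensities made by the authors; the submitters' processing notes name Affymetrix Expression Console, and version, algorithm and background settings are not given in the sources used here. Near-equal array medians show that arrays were scaled to each other, and no further scaling was applied. Of 35556 probe sets, 21789 named 1 gene in the platform table, 1621 several and 12146 none. Symbols were updated through RefSeq (GRCm38.p6), and each of 19936 genes was represented by its probe set with the highest mean.

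The test was limma 3.58.1, run in R 4.3.3 (group as the only term, empirical Bayes, two-sided p adjusted by Benjamini-Hochberg over all genes, called below 0.05), after a check on simulated data. The genes and lists were chosen with earlier results of these data known. Values in every embryo are given for antioxidant enzyme genes with an unadjusted p below 0.05 or without overlap between the groups. They are also given for the 3 largest differences and for Sod1, Sod2, Cat, Prdx3, Gclc, Hmox1 and Nqo1. Of the further redox genes, up to 4 per direction by p were named, besides Nfe2l2, Keap1, Bach1, Txnip and the sestrins. Embryo values are given for only some of the further redox genes. The number of arrays limits the precision. Alternatives were a block for the replicate number, each embryo left out in turn, a variance trend with robust estimation, weights per array, quantile or median scaling, a filter at the 40th percentile of brightness, probe sets averaged per gene and a threshold of 0.1.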

Additional observations from a re-analysis of the deposited data

Results flagged for a closer look

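In 3 of the 90 groups of 5 embryos examined (45 genes in 2 groups each), the highest or lowest embryo lay far from the others by Dixon's ratio, where chance gives about 1 in 20. Sod2 read 7.87 in transgenic embryo 2, against 8.20 to 8.30 in the other transgenic embryos. The same embryo had the highest transgenic value of Gpx7, at 5.40 against 4.99 to 5.10. Gpx4 read 9.04 in control embryo 5, against 8.79 to 8.85 in the other controls.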

How the results depend on the processing

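No antioxidant gene passed an adjusted p of 0.05 (or 0.1) in limma in any of the alternatives run. The number with an unadjusted p below 0.05 was 3 with quantile normalization and ranged over 2 to 6 when 1 embryo was left out (lowest for transgenic embryo 1, highest for control embryo 4); it was 3 without transgenic embryo 5 or control embryo 3. Their median difference stayed negative, between -0.063 and -0.011 with 1 embryo left out. Over all genes, 21 passed; 2 did with the replicate number as a block, 39 with array weights, 55 at a threshold of 0.1, and 7 to 58 with 1 embryo left out. The block left 5 antioxidant genes with an unadjusted p below 0.05 and gave Sesn3 an adjusted p of 0.0947; the labels do not state that the numbers pair embryos, correlations of same-numbered deviations ran from -0.25 to 0.24, and 0 of 5 transgenic embryos correlated best with the control of their number. Signs turned for Gpx1 (0.030), Gpx8 (0.039) and Glrx3 (-0.0091) with array weights, for Sod1 (0.026) and Gpx1 (0.00072) with quantile normalization, and for Glrx3 (-0.013) with median centring. With 1 embryo left out they turned for 9 of the 31 genes, all with small differences: Sod1 (-0.046 to 0.00095), Gpx1 (-0.066 to 0.067), Gpx7 (-0.054 to 0.065), Gpx8 (-0.11 to 0.098), Prdx4 (-0.0091 to 0.15), Txn2 (-0.032 to 0.0024), Txnrd1 (-0.091 to 0.0062), Glrx3 (-0.053 to 0.085) and Nqo1 (-0.013 to 0.13), and also for Nfe2l2 (-0.031 to 0.11). The causes were not tested.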

Other observations

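Glo1, which encodes the glutathione-dependent enzyme that detoxifies methylglyoxal, took values in separate ranges rather than a continuous spread; it was singled out after its values were seen. It read 9.21, 9.34, 9.18, 9.40 and 9.36 in transgenic embryos 1 to 5, and 9.28, 7.87, 7.88, 9.31 and 7.98 in controls 1 to 5. Thus 7 embryos lay between 9.18 and 9.40 and 3 controls between 7.87 and 7.98, with a gap of 1.20 between them. The group difference of 0.83 ± 0.28 (SE; limma adjusted p = 0.498) includes those 3 low controls.

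Btbd9, the measured gene next to Glo1 on chromosome 17 by RefSeq's map, was low in the same 3 controls. It read 8.77, 8.37, 8.01, 8.75 and 8.37 in controls 1 to 5 and 8.78 to 9.03 in the transgenic embryos (difference 0.43, limma adjusted p = 0.388). Zfand3, the next measured gene beyond Btbd9, read 7.56 to 7.76 in all 10 embryos. Dnah8, on the other side of Glo1, read 3.80 to 4.10, too dim to judge from a table without a measure of detection. The cause was not tested.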
